A study of Mus musculus with 4 samples.

Results

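The interferon-stimulated genes are genes that cells switch on after interferon reaches them. A list of 37 such genes was followed in dorsal skin of mice at postnatal day 16, in 2 wild type animals and, beside them, 2 bitransgenic animals overexpressing deltaNp63alpha, the amino-terminally truncated p63 isoform of basal keratinocytes. The members were taken as every probe set whose gene symbol in the annotation of the Affymetrix mouse array is on the list. This gave 61 probe sets of 35 genes, out of 45037 probe sets and 18193 genes with a probe set of their own. Ifi44 was not analysed here, and neither was Isg15, whose symbol is carried only by a probe set that also names a second gene. The labels name no promoter, inducing treatment, strain or sex for the bitransgenic animals, and mark the arrays within each genotype as biological replicates. Each array held RNA of whole dorsal skin, so fewer cells of a type and less RNA per cell cannot be told apart.

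Interferons act through JAK kinases and STAT proteins. Type I interferons act chiefly at the interferon-stimulated response element, where STAT2 and IRF9 take part, while interferon-gamma acts at the gamma-activated site and then through IRF1. In skin, keratinocytes, fibroblasts and resident leukocytes can all respond, and the induced genes restrict viruses, sense foreign nucleic acid and load peptides onto MHC class I. Many of the genes answer to both kinds of interferon, so the division used here, 27 genes listed as type I responsive and 10 as interferon-gamma responsive, marks the main known inducer and not an exclusive one.

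Promoters of 6 members are shown, some with large and some with small differences. They are the 250 bases before the annotated start on the gene's own strand, from RefSeq (GRCm38.p6), with capitals for 2 motifs: GAAA, any 2 bases and GAAA again on either strand, a core of the interferon-stimulated response element (ISRE), and TTCNNNGAA, which reads the same on both strands and is the core of a gamma-activated site (GAS). Oas1a (chr5:120907526-120907775, minus strand) and Oasl2 (chr5:114896684-114896933, plus) code for proteins of the oligoadenylate synthetase family and had the largest differences of the list. Ifit1 (chr19:34640639-34640888, plus) and Ifit3 (chr19:34583279-34583528, plus) are relatives of 1 gene cluster with log2 differences of 1.48 and 0.38. Igtp (chr11:58199306-58199555, plus) and Irf1 (chr11:53769764-53770013, plus) stood near opposite ends of the interferon-gamma class. Irf1 had 2 such windows, and the choice of the one printed put the most matches first.
Oas1a: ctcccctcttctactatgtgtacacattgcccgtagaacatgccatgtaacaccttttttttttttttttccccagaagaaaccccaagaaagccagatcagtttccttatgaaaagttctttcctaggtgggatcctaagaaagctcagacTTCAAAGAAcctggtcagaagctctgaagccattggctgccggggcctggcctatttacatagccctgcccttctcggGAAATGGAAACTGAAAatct
Oasl2: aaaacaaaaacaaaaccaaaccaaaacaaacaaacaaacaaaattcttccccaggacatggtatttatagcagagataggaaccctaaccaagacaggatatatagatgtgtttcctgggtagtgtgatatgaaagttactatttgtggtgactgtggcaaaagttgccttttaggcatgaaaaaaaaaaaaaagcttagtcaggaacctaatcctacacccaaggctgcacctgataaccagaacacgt
Ifit1: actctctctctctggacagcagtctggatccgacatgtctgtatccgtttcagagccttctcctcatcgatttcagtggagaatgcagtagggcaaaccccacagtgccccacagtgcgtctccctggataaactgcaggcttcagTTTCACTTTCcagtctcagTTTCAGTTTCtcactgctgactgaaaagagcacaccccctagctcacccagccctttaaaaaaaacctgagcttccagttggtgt
Ifit3: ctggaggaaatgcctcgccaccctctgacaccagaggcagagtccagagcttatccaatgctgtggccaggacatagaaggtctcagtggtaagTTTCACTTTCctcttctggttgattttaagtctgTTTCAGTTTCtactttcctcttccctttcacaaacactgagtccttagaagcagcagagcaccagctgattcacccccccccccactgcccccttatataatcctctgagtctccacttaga
Igtp: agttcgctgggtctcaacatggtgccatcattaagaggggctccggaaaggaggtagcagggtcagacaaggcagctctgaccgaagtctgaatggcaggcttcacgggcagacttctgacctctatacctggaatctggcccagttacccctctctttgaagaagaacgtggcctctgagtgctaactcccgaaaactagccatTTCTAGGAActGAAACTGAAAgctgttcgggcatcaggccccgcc
Irf1: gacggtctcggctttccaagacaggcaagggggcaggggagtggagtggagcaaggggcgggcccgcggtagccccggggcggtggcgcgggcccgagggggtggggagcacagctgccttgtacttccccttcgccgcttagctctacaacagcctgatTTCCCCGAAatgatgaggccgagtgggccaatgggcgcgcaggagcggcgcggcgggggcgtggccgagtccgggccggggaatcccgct

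The Oas1a promoter held 2 overlapping ISRE matches just before its start and 1 GAS match further upstream. Ifit1 and Ifit3 each held 2 ISRE matches, and Igtp held 1 match to each of the motifs, side by side. Irf1 held 1 GAS match only, and the Oasl2 window held neither.

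The 2% trimmed mean of the signals was 500 on each of the 4 arrays. Median signals lay between 97.9 and 113.1, and the correlation between arrays was 0.918 within wild type, 0.949 within bitransgenic and 0.869 to 0.920 across the groups. The 2 arrays with replicate number 1 had mean spike-in signals of 1528 and 1598, against 328 and 465 on the arrays with number 2. Each group held 1 array with high Xist (5182 on wild type replicate 2 and 6195 on bitransgenic replicate 1). The other array of each group had high Eif2s3y (1922 on wild type replicate 1 and 1212 on bitransgenic replicate 2). Of 4 Trp63 probe sets, 2 were 28.9-fold and 23.1-fold higher in bitransgenic skin (limma adjusted p = 0.0345 and 0.0343 over 27022 probe sets), and the other 2 had log2 differences of -0.037 and -0.33. The basal keratinocyte genes Krt5 and Krt14 had signals of 19571 or more on every array. With 2 arrays in each group, precision is limited throughout.

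Most interferon-stimulated genes read somewhat higher in bitransgenic skin, and 1 of them, Oas1a, passed the test. Values were compared as log2(signal + 16), and probe sets whose average lay below the 40th percentile, a signal of 57.0, were left out. A gene was read through its probe set with the highest mean. Of the 35 genes, 33 passed this filter, 24 of the type I class and 9 of the interferon-gamma class. Mx2 and Socs1 did not. Since the filter used the mean of both groups, a gene such as Mx1, dim in wild type skin but brighter in bitransgenic skin, could pass through the bitransgenic arrays alone. This held for Mx1 and Ifit1, whose wild type means were below the filter, so that both had to differ to be tested. By limma, with Benjamini-Hochberg adjustment over 13070 genes and a threshold of 0.05, 1 of 33 members was higher and 0 were lower. Over all genes the share called was 0.75% higher and 1.58% lower. At an unadjusted p under 0.05, 11 of 33 members were higher and 0 lower, beside 6.91% and 9.76% of all genes. Mean values were higher in bitransgenic skin for 31 of 33 members (50.5% of all genes), and both bitransgenic arrays lay above both wild type arrays for 23 of 33 (23.9% of all genes). Without Mx1 and Ifit1 the counts were 9 of 31 at an unadjusted p under 0.05, 29 of 31 with higher means and 21 of 31 free of overlap. These counts still rest on probe sets picked by the mean of both groups. Eif2ak2 was read by a probe set at 138 and 140 in wild type skin. Another of its probe sets read 207 and 150 there and gave a log2 difference of 0.59, so the bitransgenic arrays decided the choice. For Samhd1 a probe set of near equal wild type signal (465 and 404 against 528 and 341) gave 0.14, with overlap.

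The median log2 difference was 0.55 for the type I class and 0.66 for the interferon-gamma class, or 1.47-fold and 1.58-fold. Over all genes it was 0.0053. On the log2(signal + 16) scale 7 of 33 members, all of the type I class, were at least 2-fold higher, or 5 of 31 without Mx1 and Ifit1. Over all genes the share was 4.56%. Eif2ak2 is in both counts of members, through the probe set that its bitransgenic arrays decided. At least 2-fold lower were 0 members, beside 8.5% of all genes. The interferon-gamma members Tap1 and Igtp stood just under that bound at 0.99 each and passed it with a pseudocount of 1 (1.02 and 1.01) or with medians set equal (1.07 and 1.07), so the bound does not separate the classes. The type I values ran from -0.34 to 2.27 and the interferon-gamma values from 0.015 to 0.99, over 24 and 9 genes. With no filter, which brings in Mx2 and Socs1, the class medians were 0.56 and 0.63.

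**Figure D1:**
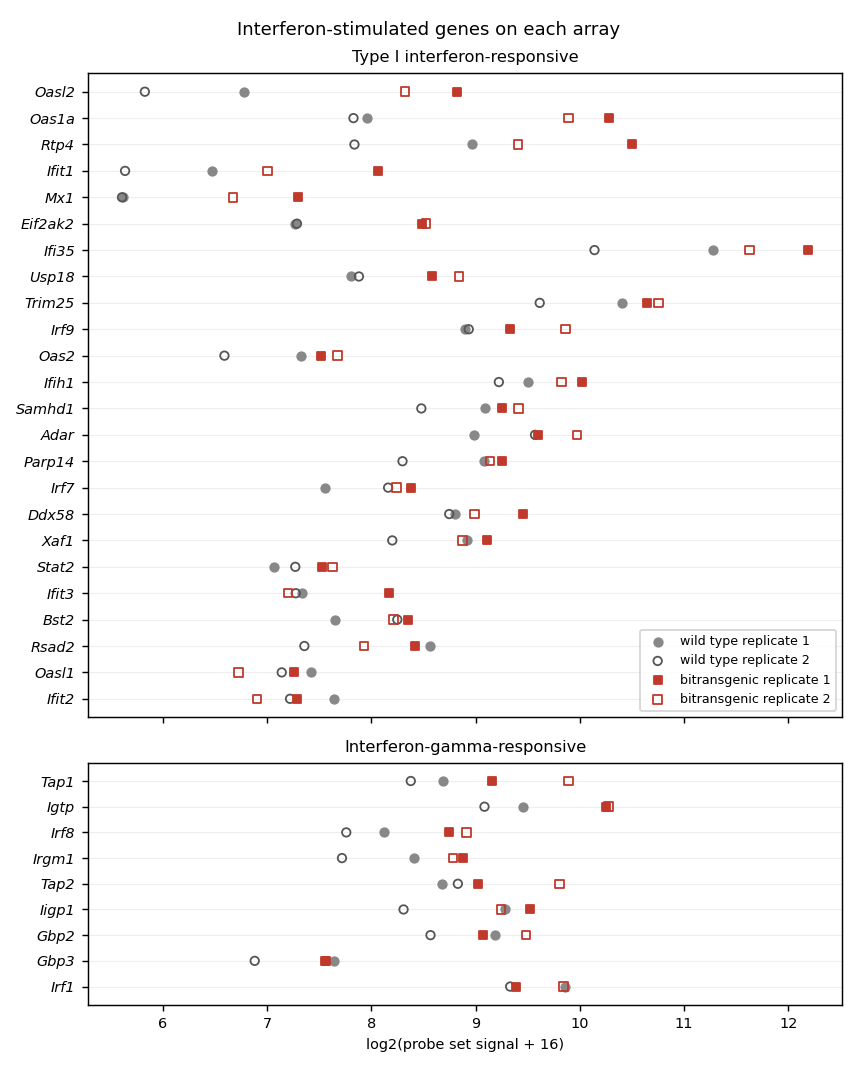
Signals of the 33 members past the filter, as log2(signal + 16) on the x axis, with 1 row per gene and 1 point per array; circles are wild type and squares bitransgenic, filled for replicate 1 and open for replicate 2. The squares of Oas1a and Oasl2 lie far to the right of their circles, while those of Ifit2, Oasl1 and Irf1 lie among or to the left of them.

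Oas1a makes 2'-5' oligoadenylates, which activate the RNA-degrading enzyme RNase L, after it binds double-stranded RNA. Its signal was 233 and 211 in wild type skin against 1228.5 and 933 in bitransgenic skin. Both bitransgenic arrays stood far above both wild type arrays, which lay close together. The log2 difference was 2.19 ± 0.30 (SE; 95% interval 1.48 to 2.90), or 4.57-fold, with an adjusted p = 0.0211 by limma over genes and 0.0447 over the 27022 probe sets. The call was lost without bitransgenic replicate 1 (2.0, adjusted p = 0.171) or without bitransgenic replicate 2 (2.39, adjusted p = 0.0806), where 1 array stands for the group. The Oas1 genes are a cluster of close copies in the mouse, and 1 probe set cannot show which of them was read.

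Oasl2, a ubiquitin-like relative, had signals of 93.7 and 40.8 in wild type skin against 437 and 305 in bitransgenic skin. The groups did not overlap, and the difference was 2.27 ± 0.44 (4.83-fold, adjusted p = 0.0605), which missed the threshold. It passed with equal array medians (limma adjusted p = 0.0411), under quantile normalization (0.0483) and with the replicate block (0.024). It did not pass under the other settings that kept all arrays, from 0.0538 at a pseudocount of 64 to 0.0998 with no filter. Over the fits without 1 array the difference ran from 1.80 to 2.75. One of its wild type signals was below the filter's 57.0, so its size depends on the pseudocount, from 2.54 at 1 to 1.74 at 64. Oas2 read 144.5 and 80.4 in wild type against 168 and 189 (0.64, adjusted p = 0.487). Oasl1, which lies directly beside Oasl2 and is known to restrain translation of Irf7, read 155 and 125 against 137 and 89.7 (-0.29, adjusted p = 0.768), a value that was -0.020 without bitransgenic replicate 2. Within this family the differences thus ran from -0.29 to 2.27, with 3 of 4 genes free of overlap in the higher direction (23.9% of all genes).

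The Ifit genes code for proteins that bind foreign RNA, and lie in a cluster. Ifit1 had signals of 72.7 and 33.8 in wild type skin against 251 and 112.5 in bitransgenic skin (1.48, 95% interval 0.25 to 2.71, adjusted p = 0.217). The groups did not overlap. Its size depends on the pseudocount, from 1.74 at 1 to 1.03 at 64, and ran from 0.95 without bitransgenic replicate 1 to 2.0 without replicate 2. Ifit3 read 146 and 139 against 272 and 131. Only bitransgenic replicate 1 was high, and the groups overlapped (0.38, adjusted p = 0.723). Ifit2 read 184 and 133 against 140 and 104, a difference of -0.34 (adjusted p = 0.713). The intervals of Ifit3 and Ifit2, -0.64 to 1.40 and -1.23 to 0.55, overlap that of Ifit1.

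Mx1, a dynamin-like GTPase that blocks viral ribonucleoproteins, read 33.0 and 32.8 in wild type skin against 141 and 85.9 in bitransgenic skin (1.37 ± 0.40, adjusted p = 0.153). Its wild type signals were below the filter, so the 2.59-fold difference on the log2(signal + 16) scale understates the ratio of the signals. Mx2, which was not tested, read 9.5 and 8.0 against 44.6 and 12.1. Among the other effectors the groups were closer. Samhd1, which depletes deoxynucleotides, read 528 and 341 against 595 and 666 (0.55, adjusted p = 0.466). Bst2, the tetherin that holds budding virions at the cell surface, read 185 and 288 against 310 and 281 (0.33, adjusted p = 0.702), with wild type replicate 2 between the bitransgenic arrays. The Bst2 value was 0.031 without wild type replicate 1 and 0.63 without replicate 2. Rsad2, or viperin, read 363 and 148 against 327 and 228 (0.21, adjusted p = 0.88), and here the wild type arrays enclosed the bitransgenic ones. Rsad2, a strongly interferon-induced gene, turned to -0.39 without wild type replicate 2 and to -0.033 without bitransgenic replicate 1.

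Usp18, the protease that removes ISG15 and damps signalling at the type I receptor, read 208 and 220 in wild type skin against 367 and 443 in bitransgenic skin. The wild type arrays lay close together and below both others (0.87, 95% interval 0.13 to 1.61, adjusted p = 0.227).

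Of the sensors, Eif2ak2, the kinase PKR that halts translation on double-stranded RNA, had replicates close together. Its signals were 138 and 140 in wild type skin against 343 and 352.5 in bitransgenic skin, a difference of 1.23 ± 0.31 (2.34-fold, adjusted p = 0.114). Its other 2 probe sets gave 0.64 and 0.59, and the second of these was brighter in wild type skin (207 and 150) than the one used. The RNA sensor gene Ifih1 (MDA5) read 710 and 581.5 against 1022 and 891 (0.56, adjusted p = 0.372). Trim25, the ubiquitin ligase that activates RIG-I, read 1336 and 768 against 1582 and 1710 (0.69, adjusted p = 0.358). Adar, an RNA-editing enzyme that marks cellular RNA as self, read 489 and 744 against 760 and 988 (0.51, adjusted p = 0.498). The bitransgenic arrays lay above the wild type ones without overlap for all of these 4 genes, as they did for 23.9% of all genes.

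Ddx58, the gene of RIG-I itself, gave opposite signs on 2 probe sets. The brighter read 429 and 414 against 684 and 493 (0.45, adjusted p = 0.531 over genes), and the dimmer read 137 and 112 against 66.6 and 113 (-0.44, adjusted p = 0.757 over probe sets). Neither passed, and the mean of both probe sets was 0.0031, so its direction was not settled. The first value ran from 0.22 without bitransgenic replicate 1 to 0.68 without replicate 2.

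Further induced genes without a shared role followed. Rtp4, a chaperone of membrane receptors, read 485 and 213 in wild type skin against 1433 and 663 in bitransgenic skin (1.55 ± 0.51, 2.93-fold, adjusted p = 0.198). Within each group replicate 1 was more than 2-fold above replicate 2, and the groups did not overlap. The difference was 2.12 without wild type replicate 1 and 0.98 without replicate 2. Ifi35 was read by 3 probe sets with differences of 1.2, 0.89 and 0.78, each free of overlap. The brightest read 2463 and 1112 against 4652 and 3148 (adjusted p = 0.217 over genes). Parp14, an ADP-ribosyltransferase, read 527 and 299 against 594 and 548 (0.50, adjusted p = 0.548), and its second, dim probe set gave -0.090. The Parp14 value was 0.11 without wild type replicate 2 and 0.90 without replicate 1. Xaf1, a pro-apoptotic inhibitor of XIAP, read 468 and 278 against 537 and 453, with overlap (0.43, adjusted p = 0.612).

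None of the transcription factors of the list passed the test. Irf9, the DNA-binding subunit of the type I complex, read 460 and 473 in wild type skin against 629.5 and 913 in bitransgenic skin (0.68, adjusted p = 0.332). Stat2, its partner, read 118 and 138 against 168.5 and 182 (0.41, adjusted p = 0.616), and a second probe set gave 0.083. Irf7, the factor that amplifies interferon-alpha genes, read 172 and 270 against 317 and 286 (0.45, adjusted p = 0.592). None of these 3 overlapped between the groups (23.9% of all genes were free of overlap in the higher direction), and the intervals of all of them included 0. Irf7 was 0.15 without wild type replicate 1 and 0.76 without replicate 2, and Irf9 was 0.42 without bitransgenic replicate 2 and 0.94 without replicate 1.

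Among interferon-gamma responsive factors, Irf1 and Irf8 had unlike values. Irf1, which carries the gamma signal to its later targets, read 914.5 and 628 in wild type skin against 651.5 and 901 in bitransgenic skin. The arrays of the groups interleaved, and the difference was 0.015 (95% interval -0.75 to 0.78), so a change of 2-fold in either direction lies outside the interval. Irf8, a factor known chiefly from macrophages and dendritic cells, read 262 and 201 against 413 and 466.5 (0.89, 95% interval 0.13 to 1.65, adjusted p = 0.224). Its second probe set read 112 and 24.7 against 325 and 163 (1.78, adjusted p = 0.334 over probe sets). The wild type mean of that probe set was below the filter, so it had to differ to be kept. Whether Irf1 and Irf8 differed from each other was not tested.

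The GTPases of the class attack the vacuoles of intracellular microbes. Igtp read 687 and 527 in wild type skin against 1201 and 1224 in bitransgenic skin, where the bitransgenic arrays lay nearly on top of each other (0.99 ± 0.27, 1.99-fold, adjusted p = 0.13). Irgm1, a regulator of the same family, read 323 and 195 against 455 and 424 (0.77, adjusted p = 0.345), also free of overlap, with 0.43 without wild type replicate 2 and 1.11 without replicate 1. Iigp1 read 607 and 301 against 721 and 591, with overlap (0.59, adjusted p = 0.523). The guanylate-binding proteins Gbp2 and Gbp3, which are encoded close together, differed less. Gbp2 read 566 and 363 against 522 and 699 (0.40, adjusted p = 0.629), with 0.092 without wild type replicate 2 and 0.71 without replicate 1. Gbp3 read 184 and 102 against 173 and 172 (0.30, adjusted p = 0.772), and its sign turned without wild type replicate 2 (-0.085). For Iigp1, Gbp2 and Gbp3, wild type replicate 1 lay above at least 1 bitransgenic array.

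Tap1 and Tap2 form the peptide transporter that supplies MHC class I, and their genes lie close together in the MHC. Tap1 read 396 and 317 in wild type skin against 556 and 934 in bitransgenic skin (0.99, 95% interval 0.15 to 1.84, adjusted p = 0.224). Tap2 read 392.4 and 439.0 against 505.5 and 878.5 (0.66, adjusted p = 0.418). In both genes bitransgenic replicate 2 stood well above replicate 1, and without it the values were 0.63 for Tap1 and 0.27 for Tap2. Socs1, a feedback inhibitor of JAK kinases, was below the filter and read 55.4 and 35.5 against 44.4 and 43.2. None of the 9 interferon-gamma members passed limma's threshold, and 3, Igtp, Tap1 and Irf8, had an unadjusted p under 0.05.

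**Figure D2:**
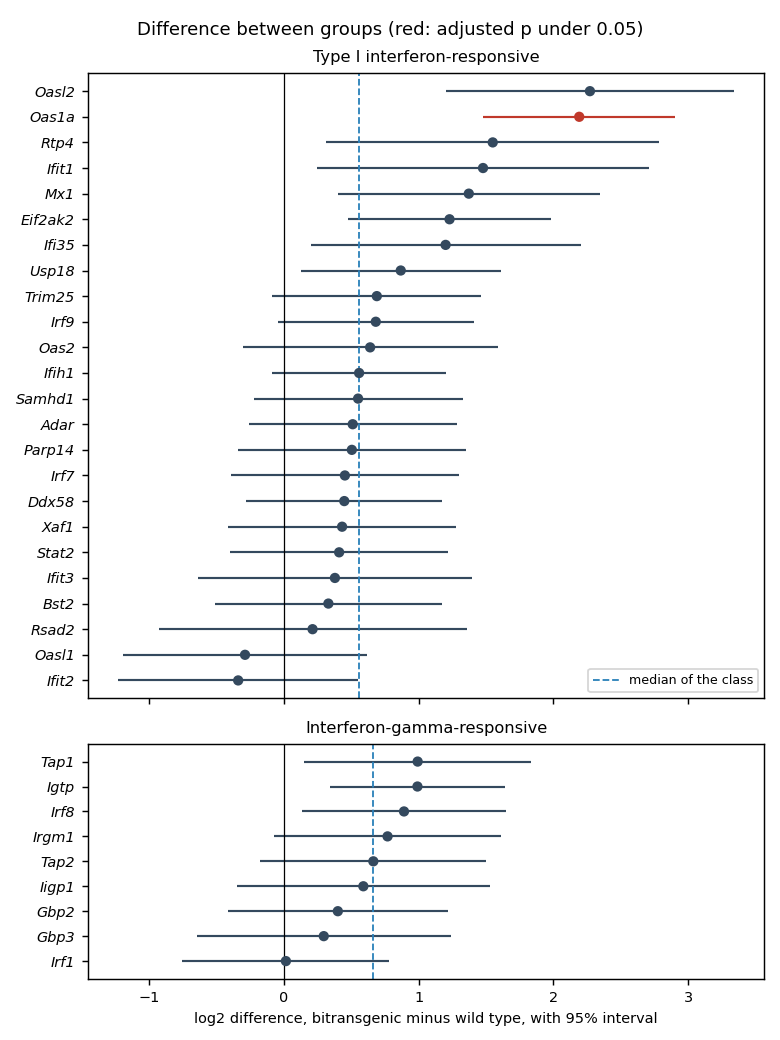
Log2 difference of each member, bitransgenic minus wild type, on the x axis with its 95% interval from limma; the dashed line is the median of the class and red marks an adjusted p under 0.05. Only Oas1a is red, and most points lie to the right of 0, with 7 type I genes at or above 1.

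Of the 61 probe sets, 53 passed the filter. Of these, 49 had positive and 4 negative differences, 36 were free of overlap in the higher direction and 0 in the lower. In the probe set fit 1 passed limma's adjusted threshold, that of Oas1a, and 14 had an unadjusted p under 0.05. Like Mx1 and Ifit1, the dimmer Irf8 probe set and a dim one each of Trim25 and Xaf1 had wild type means below the filter. These probe sets had to be higher in bitransgenic skin to be kept, and all are in the counts of positive and overlap-free ones. Those of Mx1, Ifit1 and Irf8 are also among the 14. The dim probe set of Parp14 had a bitransgenic mean below the filter instead. Over all 27022 probe sets 0.207% were called higher, 5.19% were higher at an unadjusted p under 0.05, 50.7% were positive, and 21.4% were free of overlap in the higher and 21.7% in the lower direction. Several probe sets were kept for 13 genes, and 11 of these had 1 sign throughout. The exceptions were Ddx58 and Parp14. The widest same-signed range was that of Samhd1, from 0.14 to 1.34, whose highest value came from a probe set of suffix _x_at, a kind that can read relatives of the gene. Its signal there was 386 and 64.1 in wild type, so wild type replicate 2 alone was low.

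**Figure D3:**
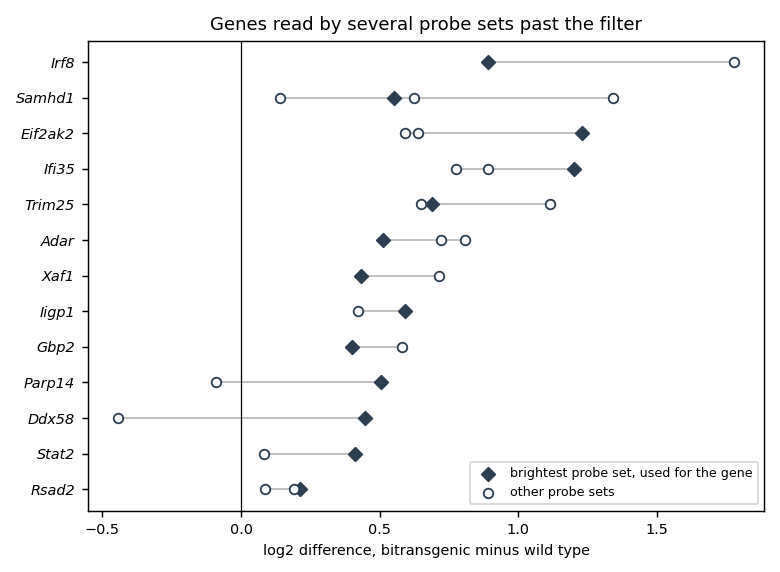
Log2 difference of every kept probe set of the 13 members with more than 1, on the x axis, with 1 row per gene; the diamond is the probe set that stands for the gene and open circles are the others. Points of Ddx58 and Parp14 fall on both sides of 0, and those of the other 11 genes lie on the right.

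The arrays within a group also differed. Wild type replicate 1 read above replicate 2 in 25 of 33 members (51% of all genes), with a median gap of 0.37. Within replicate number 1 the class medians were 0.64 (type I) and 0.35 (interferon-gamma), and within number 2 they were 0.88 and 0.98. Within each number 1 array had high Xist and the other high Eif2s3y, so these contrasts also cross that difference. Differences were positive within both numbers for 25 of 33 members (33.9% of all genes). Without wild type replicate 1 the class medians were 0.82 and 1.07, and without wild type replicate 2 they were 0.57 and 0.43. Without bitransgenic replicate 1 they were 0.66 and 0.72, and without bitransgenic replicate 2 they were 0.60 and 0.63. Limma called more members when a wild type array was left out and fewer when a bitransgenic array was left out. Its calls over all genes rose and fell in the same way, so these shifts are not particular to the members.

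Bitransgenic replicate 1 was the higher in 16 of 24 type I members, among them Oas1a, Oasl2, Ifit1, Mx1, Rtp4 and Ifi35, and in 3 of 9 interferon-gamma members, beside 42.9% of all genes. The class medians relative to wild type did not follow these counts. They were 0.60 on replicate 1 and 0.66 on replicate 2 for type I, and 0.63 and 0.72 for interferon-gamma. Leaving out 1 array moved the value by more than 1.5 times for 15 of 21 members, though not for Oas1a, Oasl2, Mx1, Igtp, Irf8 or Stat2. These 21 are the members picked by the naming rule given under the processing. They include the 3 smallest differences of each class, which pass such a ratio easily, so 15 of 21 is not a share of all members.

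Beside the members, 87 further genes of the interferon pathway were looked up, of which 74 passed the filter. Limma called 2 of them higher and 0 lower (0.75% and 1.58% of all genes), and 18 were higher and 0 lower at an unadjusted p under 0.05 (6.91% and 9.76% of all genes). Their median was 0.45, beside 0.0053 over all genes. The median ran from 0.29 to 0.62 over the fits without 1 array. The number called rose without wild type replicate 1 and fell without bitransgenic replicate 1, as did the number over all genes. Ifi27l2a, a small interferon-induced protein of the mitochondria, rose from 789 and 523 to 5992 and 2753 (2.63 ± 0.42, 6.19-fold, adjusted p = 0.0347). Cxcl9, a chemokine induced chiefly by interferon-gamma that attracts T cells, rose from 98.6 and 70.9 to 413 and 521 (2.27 ± 0.35, 4.81-fold, adjusted p = 0.0313). Both were free of overlap. Ifi27l2a was higher on bitransgenic replicate 1 and Cxcl9 on replicate 2. Cxcl9 lost its call without bitransgenic replicate 1 (adjusted p = 0.133) or replicate 2 (0.158), and Ifi27l2a without bitransgenic replicate 1 (0.123). With no filter the adjusted p was 0.0552 for Cxcl9 and 0.0525 for Ifi27l2a, and without the intensity trend it was 0.0592 for Ifi27l2a.

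The interferons themselves were dim. Of 10 ligand genes with a probe set of their own, 9 were below the filter. Ifnb1 read 22.3 and 7.0 in wild type skin against 37.7 and 59.9 in bitransgenic skin, and Ifng read 2.0 and 9.2 against 2.5 and 12.5. Without detection calls, signals this low cannot be told from background. Ifnz, the ligand gene that was tested, had a value of -0.032 that turned positive after quantile normalization (0.057) or with medians set equal (0.046).

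Of 14 genes of receptors and JAK-STAT signalling none passed limma's threshold, and 1, Stat3, had an unadjusted p under 0.05. Stat3, which transmits interleukin signals, read 1850.5 and 2156 in wild type skin against 2983 and 3334 in bitransgenic skin (0.65, adjusted p = 0.23). Socs3, its feedback inhibitor, had a value of 0.75 (adjusted p = 0.387) and the kinase gene Jak1 of 0.50 (adjusted p = 0.443). Socs3 was read by a probe set of suffix _x_at, and was 0.34 without probe sets of that kind and 0.30 without wild type replicate 2. Jak1 was 0.21 without wild type replicate 2, 0.78 without replicate 1 and 0.83 as the mean of its probe sets. The receptor genes Ifnar1, Ifnar2, Ifngr1 and Ifngr2 all overlapped between the groups, with values of -0.073, 0.30, -0.0059 and 0.45. Of 14 upstream sensors and adaptors none passed, and 2 had an unadjusted p under 0.05. Myd88, the adaptor of Toll-like receptors, read 981 and 831 against 1578 and 1491 (0.75, adjusted p = 0.194). Cgas, the sensor of cytosolic DNA, read 137 and 134 against 259 and 247 (0.83, adjusted p = 0.264). The mean of the Cgas probe sets gave 0.59. Ikbke, a kinase upstream of interferon genes, had a value of 0.74 (adjusted p = 0.419), or 0.43 without wild type replicate 2.

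Antigen processing and presentation had the highest median of the pathway lists, 0.89. Of 14 genes 0 passed limma's threshold, 8 had an unadjusted p under 0.05 and 10 were free of overlap, all in the higher direction, beside 6.91% and 23.9% of all genes. Psmb8, an immunoproteasome subunit, read 740 and 495.5 in wild type skin against 1335 and 2079 in bitransgenic skin (1.44, adjusted p = 0.0966). Its adjusted p was 0.042 without wild type replicate 1, 0.42 without bitransgenic replicate 2 and between these under the other alternatives. Nlrc5, the activator of MHC class I genes, read 466.5 and 334 against 854 and 1446 (1.46, adjusted p = 0.106). Erap1, which trims peptides for MHC class I, read 398 and 373 against 757 and 1003 (1.14, adjusted p = 0.113). The mean of the Erap1 probe sets gave 0.77. Bitransgenic replicate 2 was the higher in 13 of 14 genes of the list, as it was for Tap1 and Tap2, while replicate 1 was the higher in 42.9% of all genes.

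Leukocyte markers also read higher in bitransgenic skin. All 5 pan-leukocyte genes had positive differences, with a median of 1.26, and their summed signal was 2794 to 5176 in wild type skin against 6898 to 10359 in bitransgenic skin. All 11 macrophage markers had positive differences too (median 0.94), with a summed signal of 12391 to 19008 against 25394 to 34747. None of these 16 genes passed limma's threshold, and 3 pan-leukocyte and 6 macrophage genes had an unadjusted p under 0.05. Over all genes 50.5% were positive, 0.75% were called higher and 6.91% were higher at an unadjusted p under 0.05. Of 6 T cell markers 3 were positive and 3 negative, with a summed signal of 915 to 1319 against 882 to 1152. Of 7 dendritic and Langerhans cell markers 5 were positive (16420 to 17358 against 15423 to 30776), and Siglech, the marker of interferon-producing plasmacytoid cells, was below the filter. Of 4 neutrophil markers tested all were positive (2010 to 6967 against 8131 to 8902), and S100a9, which keratinocytes also make, was called higher (2.61, adjusted p = 0.0304). Csf3r, at 31.8 and 17.2 in wild type skin against 133 and 120, had a wild type mean below the filter. It therefore had to be positive to be tested. Elane and Cxcr2 were below the filter. No marker was listed at 0. Bitransgenic replicate 2 was the higher in 5 of 5 leukocyte and 9 of 11 macrophage genes, while replicate 1 was the higher in 42.9% of all genes. The part of these cells in the differences of the members was not tested.

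**Figure D4:**
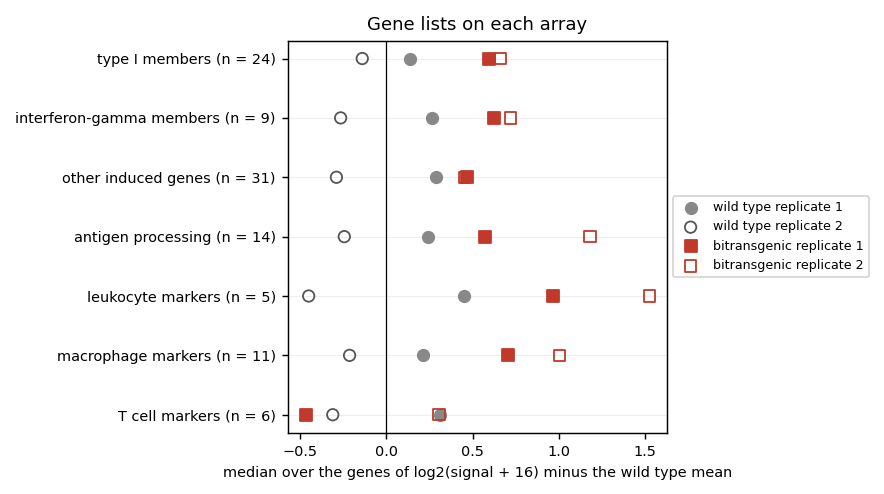
Median over the genes of each list of log2(signal + 16) minus the mean of the wild type arrays, on the x axis, with 1 point per array; n is the number of genes past the filter. Both bitransgenic arrays lie above both wild type arrays for both member classes, for other induced genes, antigen processing, leukocyte and macrophage markers, but not for T cell markers.

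Lists of other skin parts had lower medians. The median was -5.55 for 9 hair shaft genes and -3.34 for 5 skeletal muscle genes. Limma called 7 and 4 of these lower, beside 1.58% of all genes. Medians were -1.50 for 3 fat cell genes, -0.92 for 6 fibroblast genes, -0.020 for 5 endothelial genes and 0.10 for 6 keratinocyte genes. Their part in the differences of the members was not tested. The median of all genes was 0.0053, or 0.083 with equal array medians.

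Among 29 members with a RefSeq promoter entry, 12 held the ISRE letters in the 250 bases before a start, beside 3.46% of 27025 genes and 2.98% of 32851 windows in the table. For the GAS letters it was 8 of 29, beside 8.13% of genes and 7.02% of windows. By class, the ISRE letters were found in 7 of 21 type I and in 5 of 8 interferon-gamma members with an entry. Of the tested members, the 10 with the ISRE letters had a median difference of 0.405 (0.21 to 2.19) and the 16 without them 0.555 (-0.34 to 2.27). The 8 with the GAS letters had a median of 0.72 and the 18 without them 0.48. The promoters printed above show the same mixture. Oas1a and Ifit3 both held the ISRE letters and had differences of 2.19 and 0.38, and Oasl2, with 2.27, held neither set of letters in this window. A match is a description of letters and not of a bound site.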

How the data were processed

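The authors deposited 1 intensity per probe set and array, on a linear scale. Per the submitters' processing notes, the tools include MAS5 and affy; what each did, and in which version, is not given in the sources used here. Signals were used as log2(signal + 16) without further normalization. Probe sets were named by the platform annotation (34945 with 1 symbol, 932 with several, 9160 with none) and those with several were named for no gene. Of the pathway and marker symbols, 3 were updated through RefSeq synonyms.

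The genotypes were tested with R 4.3.3 and limma 3.58.1 (lmFit, then eBayes with an intensity trend, 2 residual and 4.45 prior degrees of freedom), over 13070 genes and, apart, over 27022 probe sets. The code was tested on simulated data. The members, classes and lists were chosen with earlier results of these data known. Members named with the values of every array are those past the threshold, the 5 largest and 3 smallest differences of each class, those whose probe sets disagree in sign by over 0.5 and the 5 transcription factors; the rest of the members were added after their values were seen. Of other pathway lists, the called genes or else the 3 with the smallest p are named; the receptor genes, Ifnb1, Ifng, Siglech and the genes of the closing section were chosen after their values were seen. Replicate number was no part of the fit. Alternatives were another pseudocount, filter, scaling, choice of probe set or variance model, a replicate block and leaving out each array.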

Additional observations from a re-analysis of the deposited data

How the results depend on the processing

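No alternative called a member or another pathway gene lower, and both class medians were positive under all 13 alternatives. The number of members called higher by limma, 1, was 2 after quantile normalization, 2 with medians set equal and 4 with the replicate block. Of the probe sets, 1 was called, against 3 with the replicate block. It was 0 with no filter and 0 without the intensity trend (14 at an unadjusted p under 0.05 in each). Of the other pathway genes, 2 were called, against 0 with no filter (18 at an unadjusted p under 0.05) and 1 without the intensity trend. Each of these counts also moved when 1 array was left out, as did limma's count over all genes. The type I median ran from 0.57 to 0.82 and the interferon-gamma median from 0.43 to 1.07 over the fits without 1 array. In those fits Gbp3 ran from -0.085 to 0.68, Irf1 from -0.25 to 0.28, Rsad2 from -0.39 to 0.82 and Ifnz from -0.36 to 0.29; Ifnz was also 0.057 after quantile normalization and 0.046 with medians set equal. Fits without 1 array rest on fewer samples and assume that the lone array of a group varies like the other group; the cause of the other shifts was not tested.

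The replicate numbers are not stated to pair the animals, and each number holds 1 array with high Xist and 1 with high Eif2s3y. Over 27022 probe sets the gap between replicates 1 and 2 correlated between the groups at 0.336, over 2 pairs only. With the replicate block Oas1a, Oasl2, Rtp4 and Ifi35 were called, and limma's counts over all genes went from 98 higher and 206 lower to 207 and 438. Signals come without detection calls, so values near or below 57.0 are limited by background.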

Other observations

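H2-Eb1, a class II MHC gene of antigen-presenting cells, read 2242 and 1002 in wild type skin against 215 and 359.5 in bitransgenic skin, a log2 difference of -2.36 (limma adjusted p = 0.0599). Other genes of class II presentation had positive values, 0.96 for H2-Aa, 0.91 for H2-Ab1 and 0.93 for the invariant chain gene Cd74, none past the threshold. Gbp2b, a guanylate-binding gene, read 326 and 160 against 259 and 44.6 (-0.93, adjusted p = 0.605). Ccl5, a chemokine below the filter, read 5.60 and 12.3 in wild type skin against 109 and 19.6 in bitransgenic skin, so bitransgenic replicate 1 alone was high. Cxcl11, an interferon-induced chemokine, likewise read 87.6 and 55.6 against 369 and 33.3 (0.68, adjusted p = 0.776).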
